A study of Mus musculus with 11 samples.

Results

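EC4 cells are mouse liver cancer cells whose MYC, a transcription factor that drives cell growth, can be turned on or off. The libraries described here were made from polyadenylated RNA of EC4 cells kept for 24 h in DMEM with 10 µM methionine, and they set 3 libraries labelled MYC high (genotype MYC on) against 3 labelled MYC low (genotype MYC off). They are 6 of the 11 libraries analysed. The other 5, 2 labelled MYC high and 3 labelled MYC low, were kept for 24 h in DMEM with 200 µM methionine, the concentration in which all cells were grown beforehand. Genes were taken in by level alone, without regard to their difference: 12967 of the 55416 genes in the deposited table had a mean of at least 10 normalized counts (reads scaled between libraries) over the 6 libraries. By its title, the series deals with methionine metabolism and the RNA methyltransferase NOP2 in MYC-driven liver tumours, and the comparison asks which transcripts depend on the MYC state when methionine is scarce. EC4 is 1 cell line, the labels do not say how or for how long MYC was switched, and they do not say that libraries of a group came from separate cultures. The p-values therefore rest on the spread among the libraries sequenced, part or all of which may be technical.

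MYC binds DNA as a dimer with MAX, mostly at the E-box CACGTG, and its targets are known for ribosome assembly, nucleotide and amino acid supply and cell division, while MXD proteins and MNT compete with it for MAX. Methionine is needed to start every protein and to make S-adenosylmethionine, the donor of methyl groups for RNA, DNA and proteins. Genes of the hypoxia response are turned on by the factors HIF-1 and HIF-2 through short sites, ACGTG or GCGTG, when the prolyl hydroxylases that mark HIF for destruction, enzymes that need oxygen, iron and 2-oxoglutarate, are inactive. HIF and MYC are known to share targets in sugar metabolism. Methionine and MYC were the factors that the study varied, and no oxygen setting is named in the labels.

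Reads on genes numbered 11788415 to 13085689 per library, with at least 1 read for 17801 to 18462 genes. Replicates of a group correlated across genes with Pearson coefficients of 0.9936 to 0.9948, and the leading principal component, which separated the MYC labels, carried 88.7% of the variance of the 6 libraries. None of 10 hepatocyte markers reached the level set for testing, 7 of them had no read in any of the 6 libraries (albumin, Alb, among them), and the summed level of the 10 was 0 to 1.01 normalized counts in MYC high and 0 to 1.90 in MYC low libraries. Of 6 fetal liver markers only Afp, the fetal serum protein, was tested. Of 5 tested biliary markers 4 were at least 2-fold lower in MYC high libraries (median −1.46), with the biliary list summing to 19243 to 20474 normalized counts in MYC high and 36898 to 37545 in MYC low libraries, and the keratin Krt19 was the 1 higher member, at 12021 against 11026 (means of 3 libraries each). The part of these markers in other results was not tested. The labelled tissue, liver, was thus not borne out by mature hepatocyte transcripts. Endothelial and lymphocyte markers summed to at most 4.41 normalized counts in a library, and of 6 macrophage markers only Cd68 (1.15) and Csf1r (−0.77) were tested, with 3 of the 6, Adgre1 among them, at 0.

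The mouse Myc transcript (ENSMUSG00000022346) did not separate the labels in this medium. It stood at 291, 366 and 350.3 normalized counts in the libraries labelled MYC high and at 320.0, 344 and 342 in those labelled MYC low, so the lowest and the highest value both belonged to MYC high libraries. The log2 difference, here always MYC high minus MYC low, was −0.00 with a 95% interval of −0.13 to 0.12 (limma adjusted p = 0.949). Whether EC4 cells carry a MYC transgene whose reads were not counted under this gene was not examined. This transcript alone therefore tests the labels incompletely. Every direction given here rests on the labels MYC high and MYC low.

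Partners and competitors of MYC did differ. Max, the dimer partner, stood at 773, 817 and 815 against 488, 501 and 522 normalized counts, with no overlap, a log2 difference of 0.67 (SE 0.054). Mxi1, which encodes a MAX-bound repressor, stood at 2021, 2114 and 2122 against 359.8, 355 and 338 (log2 2.57 (SE 0.049)), and Mxd1, another of these repressors, was higher by 1.62. Tfap4, a direct MYC target that encodes an E-box factor, was higher by 1.69. Of 12 tested members of the network, 8 were higher, 3 were lower and Myc did not pass. The 3 lower ones were Mlx (−0.22), Mxd4 (−0.33) and Zbtb17 (−0.35), the last encoding the MYC partner MIZ1. Mycn and Mycl did not reach the level set for testing.

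Most genes differed between the labels. With limma and Benjamini-Hochberg adjustment at 0.05, 9275 genes passed (71.5% of those tested), 4645 of them higher in MYC high libraries (35.8%) and 4630 lower (35.7%). Of these, 1890 (14.6%) differed at least 2-fold, 858 higher (6.62%) and 1032 lower (7.96%). The 3 values of one group lay wholly above those of the other in 4827 genes (37.2%) and wholly below in 4729 (36.5%). The median log2 difference over all genes was 0.00 with quartiles of −0.40 and 0.39, and the median SE was 0.074. Scaling between libraries tends to centre such a median, so it and the near-equal counts cannot show balanced change. When scaled by library totals, 4201 genes were higher and 5100 lower. Large differences were more often downward: 253 genes were at least 4-fold lower and 141 at least 4-fold higher. Counts of list members are to be read against these shares, and medians against that of all genes. In RNA from a whole culture, a change in the share of cells that express a gene and a change in RNA per cell cannot be told apart.

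**Figure D1:**
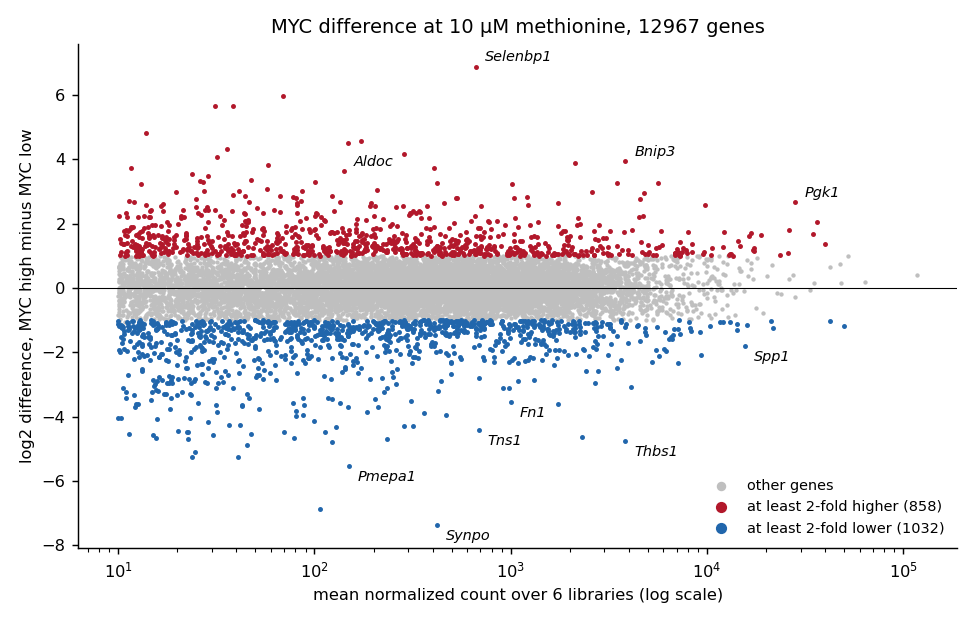
Each point is 1 of 12967 genes, placed by its mean normalized count over the 6 libraries (log scale) and by its log2 difference, MYC high minus MYC low at 10 µM methionine. Red points are the 858 genes at least 2-fold higher and blue points the 1032 at least 2-fold lower, both with limma adjusted p under 0.05, and Selenbp1 (6.87) and Synpo (−7.37) mark the extremes among labelled genes.

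Of the 15 genes that led the higher side, 10 are on the lists of hypoxia-inducible, glycolysis and pyruvate genes, which hold 0.625% of the genes tested. Those lists, Selenbp1 and Prelid2 included, were drawn up with earlier results of these data known, so the count is no independent evidence. Selenbp1 (ENSMUSG00000068874), which encodes a selenium-binding methanethiol oxidase and has a close paralog, stood at 1270.3, 1399.5 and 1293 normalized counts in MYC high libraries and at 9.94, 11.4 and 9.70 in MYC low libraries. The groups were far apart, at a log2 difference of 6.87 (SE 0.28). The ratio of the group means, without the added pseudocount, was 128-fold. Ankrd37, a small ankyrin repeat gene, stood at 529.7, 573 and 525 against 32.5, 27.5 and 29.1 (log2 4.15 (SE 0.21)). The neighbour Lrp2bp, higher by 4.55, overlaps Ankrd37 on the opposite strand, and without a known strand setting their reads cannot be told apart. The same limit holds for Bnip3, Efhd1, Fam162a, Slc2a1, Hif1a, Mat2a and Sned1, each of which overlaps an expressed transcript on the other strand.

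Bnip3 (ENSMUSG00000078566), a receptor that marks mitochondria for autophagy and has processed copies in the genome, stood at 7092, 7423 and 7075 normalized counts against 503, 460.1 and 448. Its log2 difference was 3.93 (SE 0.051), or 15.3-fold, and the antisense transcript Gm45507 (log2 3.89) lies on the other strand of the same locus. Stbd1, a glycogen-binding protein of the autophagy system, stood at 265, 307 and 279 against 9.94, 11.4 and 13.2 (log2 4.51 (SE 0.15)). Reep6, which shapes endoplasmic reticulum membranes, stood at 765, 759 and 751 against 46.1, 59.8 and 63.5 (log2 3.74 (SE 0.10)). In each of these genes all 3 MYC high values lay several-fold above all 3 MYC low values.

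P4ha2, a collagen prolyl hydroxylase, stood at 163, 195 and 189 against 14.5, 24.7 and 15.9 (log2 3.28 (SE 0.26)). Fam162a, a mitochondrial protein of the hypoxia response, stood at 6294, 6483 and 6134 against 663, 667 and 647 (log2 3.26 (SE 0.048)). Ero1l, which encodes an oxidase that forms disulphide bonds in the endoplasmic reticulum, stood at 9906, 10444 and 10199 against 1034, 1083 and 1084 (log2 3.25 (SE 0.037)). The folds of these 3 genes were alike, and in each the groups lay far apart. Ak4, a mitochondrial adenylate kinase, was higher by 3.22, Prelid2 by 3.04 and Efhd1, a mitochondrial calcium-binding protein with the antisense transcript Efhd1os at its locus, by 3.27.

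Over the list of hypoxia-inducible genes outside sugar metabolism, 40 of 48 tested members were higher, 4 were lower and 4 did not pass, and 24 were at least 2-fold higher. The median was 1.10 on the log2 scale. Members with other roles moved with the leading ones: Vegfa (1.23) and Hmox1 (0.36), an angiogenic growth factor and haem oxygenase, Ddit4 (1.95), which restrains mTORC1, and Bnip3l (1.49), the close relative of Bnip3. The 2 lower members named by rule were Plod1 (−0.74) and Pam (−0.81), a collagen lysyl hydroxylase and a peptide-amidating enzyme, and Stc2 (0.13, adjusted p = 0.244), Rora (−0.18, adjusted p = 0.35) and Pfkfb4 (0.20, adjusted p = 0.422) did not pass. This list and those of glycolysis and autophagy share members.

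**Figure D2:**
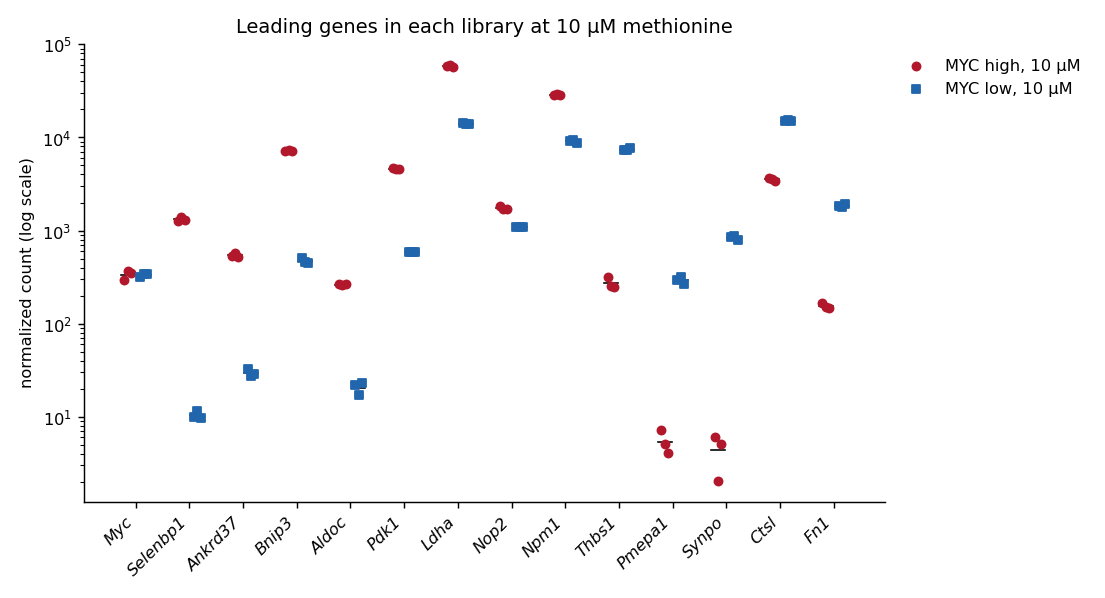
Normalized counts (log scale) of 14 genes in each of the 6 libraries at 10 µM methionine, with red circles for MYC high, blue squares for MYC low and a line at each mean of 3. Myc overlaps between the labels, whereas the MYC high values of Selenbp1 to Npm1 lie above and those of Thbs1 to Fn1 lie below the MYC low values.

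Among members of the hypoxia and glycolysis lists with an entry in the RefSeq promoter table, the 6 with the largest positive differences were taken. Their promoters are shown because the sites ACGTG and GCGTG can be read in them. Each runs 5′ to 3′ along the gene's strand, from 250 bases before to 50 bases after the start, and capitals mark ACGTG or GCGTG on either strand (CACGT and CACGC where the site is on the other strand). ACGTG is part of the E-box CACGTG, and overlapping matches share capitals. Sequences and coordinates are those of build GRCm38.p6, whereas the submitters' processing notes name GRCm39.
Selenbp1: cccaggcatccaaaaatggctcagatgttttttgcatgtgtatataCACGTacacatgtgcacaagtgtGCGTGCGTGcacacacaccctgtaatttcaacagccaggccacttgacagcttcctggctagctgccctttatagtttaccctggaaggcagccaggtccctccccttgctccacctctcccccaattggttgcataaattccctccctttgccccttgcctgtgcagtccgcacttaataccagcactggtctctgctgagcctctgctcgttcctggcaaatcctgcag
Ankrd37: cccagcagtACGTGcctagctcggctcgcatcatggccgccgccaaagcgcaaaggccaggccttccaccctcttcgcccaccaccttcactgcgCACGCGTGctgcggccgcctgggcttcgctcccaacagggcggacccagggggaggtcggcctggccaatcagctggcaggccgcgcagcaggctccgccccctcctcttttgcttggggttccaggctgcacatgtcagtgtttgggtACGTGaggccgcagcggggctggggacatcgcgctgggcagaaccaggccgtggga
Bnip3: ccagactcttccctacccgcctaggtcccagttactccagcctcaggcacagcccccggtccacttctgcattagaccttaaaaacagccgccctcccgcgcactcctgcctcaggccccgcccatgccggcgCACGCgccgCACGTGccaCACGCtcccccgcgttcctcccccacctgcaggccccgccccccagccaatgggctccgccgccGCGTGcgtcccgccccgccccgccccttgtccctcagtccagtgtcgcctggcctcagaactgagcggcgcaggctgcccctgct
Aldoc: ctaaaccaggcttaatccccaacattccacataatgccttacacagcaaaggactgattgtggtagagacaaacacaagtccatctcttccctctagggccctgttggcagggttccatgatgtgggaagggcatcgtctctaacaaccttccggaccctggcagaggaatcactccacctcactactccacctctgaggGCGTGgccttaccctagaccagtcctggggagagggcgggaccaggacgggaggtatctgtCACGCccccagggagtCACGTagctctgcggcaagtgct
P4ha2: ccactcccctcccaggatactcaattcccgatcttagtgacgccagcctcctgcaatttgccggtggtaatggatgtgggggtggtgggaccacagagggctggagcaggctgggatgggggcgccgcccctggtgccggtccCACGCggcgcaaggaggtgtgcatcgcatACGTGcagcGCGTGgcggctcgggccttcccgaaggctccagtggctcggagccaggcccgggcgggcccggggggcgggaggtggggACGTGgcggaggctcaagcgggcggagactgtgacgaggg
Fam162a: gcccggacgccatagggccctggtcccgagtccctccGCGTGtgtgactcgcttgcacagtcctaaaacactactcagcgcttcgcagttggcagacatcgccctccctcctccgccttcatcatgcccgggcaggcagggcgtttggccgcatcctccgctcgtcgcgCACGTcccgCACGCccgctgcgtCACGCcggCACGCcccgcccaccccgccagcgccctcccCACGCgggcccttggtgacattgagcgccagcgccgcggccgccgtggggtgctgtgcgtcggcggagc
The positions are chr3:94932833-94933132 (plus strand) for Selenbp1, chr8:45999801-46000100 (minus) for Ankrd37, chr7:138909457-138909756 (minus) for Bnip3, chr11:78322823-78323122 (plus, the first of 2 entries) for Aldoc, chr11:54100674-54100973 (plus) for P4ha2 and chr16:36071512-36071811 (minus) for Fam162a. All 6 windows held at least 3 matches, and Fam162a held the most of these, 6. Bnip3 was the one of the 6 with a CACGTG. The genes next in order, Ak4 and Ciart, are not printed and differed from these. Ak4 held 2 matches and no CACGTG, and Ciart held 7 matches and 3 CACGTG.

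Across the table, 43.8% of 27025 promoters of the same length held ACGTG or GCGTG, and 64.7% of the 9298 that matched a tested gene did. The share was 84.2% for the hypoxia list (32 of 38 matched members), 63.6% for glucose uptake and glycolysis (14 of 22) and 83.1% for ribosome assembly (59 of 71). ACGTG alone was held by 57.9% of the hypoxia list, 46.2% of canonical MYC targets, 45.9% of lysosomal genes, 42.3% of ribosome assembly genes, 40.9% of glycolysis genes and 26.6% of matched tested genes. The E-box CACGTG was held by 10.5% of matched tested genes, 28.2% of canonical MYC targets (11 of 39), 22.5% of ribosome assembly genes (16 of 71), 8.77% of ribosomal protein genes and 35.1% of lysosomal genes (13 of 37). Among genes at least 2-fold higher 10.3% held it, and among those at least 2-fold lower 8.64% did. These are letter matches in 1 short window per gene, not measured binding.

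The machinery that governs HIF was itself unevenly placed. Egln3 and Egln1, prolyl hydroxylases that are also HIF targets, stood at 8350.4, 8692 and 8395 against 1056, 1091 and 1135 and at 3897, 4043 and 4004 against 1411, 1461 and 1307 normalized counts. Neither gene's groups overlapped, and the log2 differences were 2.95 (SE 0.043) and 1.52 (SE 0.040). The HIF-1 subunit transcript Hif1a was lower in MYC high libraries, at 2254, 2250.2 and 2272 against 3095, 3244 and 3271 (log2 −0.50 (SE 0.035)). Its partner Arnt (0.11, adjusted p = 0.0927) did not pass, though without MYC high replicate 2 or MYC low replicate 3 it did (0.18 and 0.15, adjusted p = 0.00574 and 0.045). The second partner Arnt2 was lower (−2.48), Egln2 was lower (−0.51), and Vhl, which carries hydroxylated HIF to the proteasome, was higher (0.43). HIF is controlled mainly as a protein, which was not measured. Of 17 demethylases of histones and DNA that need iron and 2-oxoglutarate, 15 were higher, 1 was lower (Kdm4a (−0.33)) and 1 did not pass (Kdm8 (0.02, adjusted p = 0.914)). Kdm3a (0.98), Tet2 (0.97), Kdm7a (0.90) and Kdm6b (0.83) led them.

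Sugar metabolism was higher from uptake to lactate. Of 22 tested genes of glucose uptake and glycolysis, 18 were higher, 2 were lower and 2 did not pass, 16 were at least 2-fold higher, and the median log2 difference was 1.45. Slc2a1, the main glucose carrier of dividing cells, stood at 4031, 4369 and 3951 against 1404, 1510.4 and 1446 normalized counts (log2 1.50 (SE 0.050)), while the hepatocyte carrier Slc2a2 was lower (−0.90), a call that was lost without MYC high replicate 2 or 3 or any 1 of the MYC low replicates (adjusted p of 0.0765 to 0.148). Of the hexokinases, Hk2 was higher by 1.29 and Hk1 by 0.14.

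All 3 tested phosphofructokinase genes were higher, Pfkp (2.21), Pfkl (1.42) and Pfkm (1.06). Pgk1, the first enzyme that yields ATP, stood at 47949.6, 50356 and 48067 against 7824, 7766 and 7565, and Aldoc, an aldolase typical of brain, at 264, 258 and 267 against 21.7, 17.1 and 22.9. Their log2 differences were 2.66 (SE 0.028) and 3.62 (SE 0.25), and neither gene's groups overlapped. Gpi1 (1.73), Aldoa (1.81), Tpi1 (1.47), Gapdh (1.69), Pgam1 (1.74) and Eno1 (1.69) cover the other steps. Reads of Gapdh, Pgk1 and Ldha may be shared with processed pseudogenes. The pyruvate kinases Pkm (1.36) and Pklr (2.03) were both higher, the latter at low counts. The regulators of fructose 2,6-bisphosphate were mixed, with Pfkfb1 (1.11) and Pfkfb3 (0.59) higher, Pfkfb2 (−0.61) lower and Pfkfb4 (0.20, adjusted p = 0.422) not passed.

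At the pyruvate branch Pdk1, a kinase that shuts off pyruvate dehydrogenase, stood at 4700.3, 4584 and 4536 against 585, 583 and 589 (log2 2.97 (SE 0.046)). Ldha, which makes lactate, stood at 58785, 60321 and 57173 against 14225, 14034 and 14032 (log2 2.06 (SE 0.027)). Neither gene's groups came near each other. Pdk3, of the same kinase family, was higher by 2.82, while Pdk2 was lower (−0.92). The lactate carrier Slc16a1 (1.19) and its chaperone Bsg (0.94) were higher, and the carrier Slc16a3 (−0.55, adjusted p = 0.0775), known as a hypoxia target, did not pass with all libraries but did without MYC high replicate 2 or MYC low replicate 1 (−0.85 and −0.86, adjusted p = 0.0127 and 0.011). Subunits of pyruvate dehydrogenase were higher (Dlat (0.62), Pdhb (0.53)) or did not pass (Pdha1 (0.04, adjusted p = 0.307)). The mitochondrial pyruvate carrier genes Mpc1 (−0.12, adjusted p = 0.445) and Mpc2 (−0.02, adjusted p = 0.764) did not pass, and Pcx, the pyruvate carboxylase of gluconeogenesis, was lower (−0.29).

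Of 10 tested glycogen genes, 7 were higher, 2 were lower and 1 did not pass. The synthetic arm was higher in Pgm1 (1.57), glycogen synthase Gys1 (1.78) and the branching enzyme Gbe1 (1.98), beside Stbd1. Gbe1 stood at 3485, 3674 and 3634 against 956, 879 and 897 normalized counts and Gys1 at 3925, 4348 and 4032 against 1142, 1196 and 1237. In both genes every MYC high value was more than 3 times every MYC low value. The uridylyltransferase Ugp2 (−0.68) and the phosphorylase Pygb (−0.24) were the lower members.

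**Figure D3:**
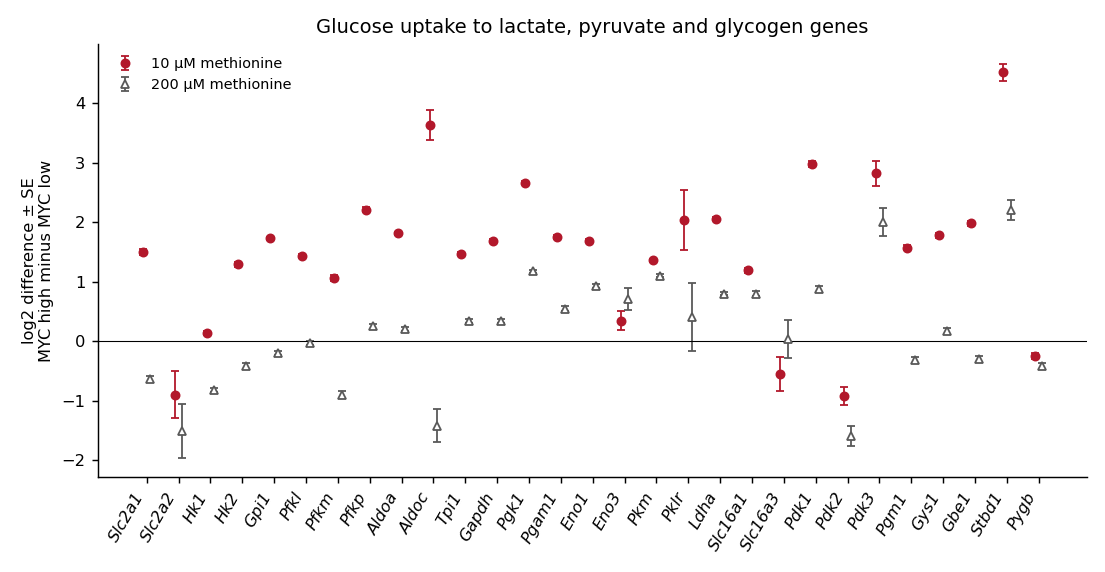
Log2 difference, MYC high minus MYC low, with its SE for genes from glucose uptake to lactate, pyruvate handling and glycogen, as red circles at 10 µM and open grey triangles at 200 µM methionine. At 10 µM most points lie above 1, with Stbd1 at 4.51 and Aldoc at 3.62, while at 200 µM Aldoc lies at −1.42 and Slc2a1 at −0.63.

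Canonical MYC targets and ribosome assembly genes were higher almost throughout. Of 46 canonical MYC targets 43 were higher, 1 was lower and 2 did not pass, with a median of 0.89. The lower one was Prps2 (−0.77), a ribose phosphate kinase, and Mcm4 (0.02, adjusted p = 0.717) and Nme2 (0.10, adjusted p = 0.701) did not pass. Of 88 ribosome assembly genes 80 were higher, 13 of them at least 2-fold (median 0.64). Npm1, the nucleolar chaperone nucleophosmin, stood at 28238, 29202 and 28924 against 9207, 9403 and 8789 normalized counts (log2 1.66 (SE 0.028)), with Nhp2 (1.34), Sdad1 (1.28) and Nle1 (1.26) next and Ddx49 (−0.29) and Pno1 (−0.22) lower.

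Nop2, the rRNA cytosine methyltransferase of the series title, stood at 1817, 1719 and 1685 against 1083, 1092 and 1084 normalized counts. The groups did not overlap (log2 0.68 (SE 0.039)). Of 7 enzymes of this RNA m5C family 3 were higher, with Nsun2 (1.56) ahead of Nsun5 (0.74) and Nop2, 1 was lower (Nsun3 (−0.37)), and Nsun4 (−0.26, adjusted p = 0.108), Nsun6 (−0.21, adjusted p = 0.193) and Trdmt1 (−0.14, adjusted p = 0.506) did not pass. Nsun4 did pass without MYC high replicate 1 (−0.38, adjusted p = 0.0398). Among m6A and cap genes 12 of 26 were higher and 4 lower, led by the readers Igf2bp2 (1.55) and Igf2bp3 (1.13) and the demethylase Alkbh5 (0.86), with the methyltransferase Mettl3 (−0.30) on the lower side. Of 38 DNA, lysine and arginine methyltransferases 20 were higher and 7 lower, among them Dnmt3b (1.40), Prmt7 (0.86) and Suv39h2 (0.82) above and Prdm2 (−1.26) and Ezh1 (−0.68) beneath.

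Ribosomal protein genes moved in 1 direction. Of 78 tested genes 77 were higher, 37 at least 2-fold, with a median of 0.99. The one that did not pass was Rps10 (0.43, adjusted p = 0.264), and Rpl8 (1.26) and Rps26 (1.26) were among the highest. Many of these genes have processed pseudogenes that may take or give reads. Hosts of small nucleolar RNAs, many of which are terminal oligopyrimidine transcripts like the ribosomal protein genes, were higher in 13 of 14 (median 0.83), with Zfas1 (1.46) and Snhg12 (1.39) first. Of 35 RNA polymerase I and III genes 20 were higher and 5 lower (median 0.26), led by Polr1e (1.46) and Polr3g (1.30), while the polymerase I factor Rrn3 (0.04, adjusted p = 0.386) did not pass. Translation factors were higher in 41 of 47 (median 0.58), among them Eif5a (1.29) and the translational repressor Eif4ebp1 (1.34), with Eif4g3 (−0.70) and Eif4a2 (−0.45) lower. Of 20 cytosolic tRNA synthetases 18 were higher (median 0.70), with Kars (1.01) at the top, Aars (−0.32) lower and Wars (0.01, adjusted p = 0.91) not passed.

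Nuclear and mitochondrial genomes differed in direction. Mitochondrial ribosomal protein genes were higher in 68 of 77 with none lower (median 0.41), and nuclear genes of the respiratory chain in 45 of 48 with none lower (median 0.53, Cyc1 (1.01) first). Of 13 messenger RNAs made from mitochondrial DNA, 5 did not reach the level set for testing. Of the 8 tested, 7 were lower, 5 of them at least 2-fold (median −1.03). Among them mt-Nd4 (−1.28), mt-Nd5 (−1.12) and mt-Cytb (−1.04) were lower, and mt-Co3 (−0.09, adjusted p = 0.808) did not pass. The mt-Co3 value rests on low counts and cannot show that this transcript was unchanged. Mitochondrially encoded messenger RNAs together, tested or not, took 0.655% ± 0.0520 of reads in MYC high and 1.36% ± 0.0265 in MYC low libraries (SD, n = 3 each). This share moved with the labels, and its part in other results was not tested.

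Genes of the ATF4 response to amino acid shortage were mostly higher, at 24 of 33 with 6 lower and 3 not passed (median 0.87). Those of proline and serine synthesis led: Psat1, the serine aminotransferase, stood at 16893, 16835 and 16351 against 2884, 2742 and 2821 normalized counts (log2 2.57 (SE 0.030)), and Pycr1 (2.32) and Aldh18a1 (2.18) make proline. The lower members named by rule were Jdp2 (−1.38) and the stress hormone Gdf15 (−1.34). Of 25 serine, folate and one-carbon genes 18 were higher, with Mthfd1l (2.04), Ftcd (1.87), Shmt1 (1.82) and Shmt2 (1.71) after Psat1. Aldh1l1 (−2.51) and Ggh (−1.21), a formyltetrahydrofolate dehydrogenase and a folate hydrolase, were lower. Ftcd and Aldh1l1 passed at weaker limma adjusted p (0.00243 and 0.00037) than the others named here.

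Within methionine metabolism the enzymes moved apart. Ahcy, which clears S-adenosylhomocysteine, stood at 2708, 2667 and 2556 against 1254, 1184 and 1175 (log2 1.13 (SE 0.039)). Mat2a, which makes S-adenosylmethionine and whose transcript is known to be stabilised when that product is scarce, stood at 1536, 1531 and 1586 against 2243, 2175 and 2235 and was lower in MYC high libraries (log2 −0.52 (SE 0.037)). Neither pair of groups overlapped. Mtr (0.52), the methionine synthase, Mat2b (0.29) and Mettl16 (0.32), the methyltransferase that reads Mat2a, were higher by smaller steps, Ahcyl1 (−0.11) and Ahcyl2 (−0.37) were lower, and Mtrr (0.02, adjusted p = 0.815) and Slc25a26 (−0.19, adjusted p = 0.194) were among the 3 that did not pass.

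The path from S-adenosylmethionine to polyamines was higher in Srm (1.45), Sms (1.33) and Odc1 (1.05), spermidine synthase, spermine synthase and ornithine decarboxylase, while the decarboxylase Amd1 (0.21) differed little. Of the 19 tested genes of methionine salvage and polyamines 11 were higher, 5 were lower and 3 did not pass (median 0.40). Salvage enzymes were higher in Mri1 (0.68), Enoph1 (0.50) and Mtap (0.40), lower in Adi1 (−0.13) and not passed in Apip (−0.07, adjusted p = 0.389). The call of Adi1 (adjusted p = 0.0244) was lost without MYC high replicate 1 or 3 or MYC low replicate 1 or 2 (adjusted p of 0.0541 to 0.193). The spermine oxidase Smox (−0.61) and the antizyme inhibitor Azin2 (−2.26) were lower. Amino acid carriers split, with 7 of 19 higher and 10 lower: Slc1a5 (2.23) and Slc7a5 (1.76) stood on the higher side, and Slc43a2, a carrier that takes up methionine, on the lower side at 97.8, 121 and 94.2 against 833, 747 and 742 (log2 −2.89 (SE 0.090)), with Slc36a1 (−1.39) and Slc7a7 (−0.85) after it.

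Of 36 nucleotide synthesis genes 25 were higher and 7 lower (median 0.46). Uck2, a uridine kinase, stood at 3039, 2986 and 2968 against 502, 462 and 489 (log2 2.63 (SE 0.042)), followed by Nme4 (1.70), Dhodh (1.52) and Impdh2 (1.30). Replication genes were higher in 39 of 46 (median 0.52), with the licensing factor Cdt1 (1.29) first and the helicase subunit Mcm2 (−0.25) lower, and mitotic genes in 32 of 40 (median 0.44), with Mybl2 (1.66) and Cdc25b (1.02) first. G1 regulators were mixed at 14 higher and 10 lower of 25 (35.8% and 35.7% of all genes). Ccnd3 (1.18) and E2f2 (0.92) were higher, and cyclin D1, Ccnd1, stood at 2159, 2196 and 2082 against 9421, 9126 and 9331 normalized counts, lower in MYC high libraries (log2 −2.11 (SE 0.033)). The CDK inhibitors Cdkn1a (0.51) and Cdkn2a (0.86) were higher and Cdkn2c (−0.58) and Cdkn2b (−0.48) lower.

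Each of the lipid lists held members that differed in both directions, as did the genes at large (35.8% higher and 35.7% lower). Sterol synthesis and uptake had 19 of 32 members higher and 10 lower (median 0.43), with Stard4 (2.37), a sterol carrier protein, and the synthesis enzymes Sqle (1.27) and Lss (1.11) above. The cholesterol exporter Abca1 stood at 25.5, 16.2 and 19.2 against 225, 248 and 279, lower in MYC high libraries (log2 −3.58 (SE 0.15)), beside the exporter Abcg1 (−2.19). In fatty acid and glycerolipid synthesis 12 of 31 were higher, such as Acacb (2.23) and Elovl6 (2.09), and 15 lower, such as the desaturases Fads3 (−1.48), Scd1 (−1.25) and Fads1 (−0.76). Fatty acid oxidation had 11 of 24 higher, led by Acaa2 (1.28), and 8 lower, among them the gatekeeper carnitine transferase Cpt1a (−0.95).

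Several of the genes that led the lower side encode proteins of the actin cytoskeleton, the cell surface and the extracellular matrix. Synpo (ENSMUSG00000043079), an actin-bundling protein, stood at 6.11, 2.03 and 5.06 normalized counts in MYC high libraries and 857, 882 and 785 in MYC low libraries. The MYC high values lay near the level of 3 reads, which was 2.65 to 3.06 normalized counts, so the log2 difference of −7.37 (SE 0.22) depends on few reads there. Thbs1 (ENSMUSG00000040152), the matrix glycoprotein thrombospondin 1, stood at 316, 255 and 249 against 7300.1, 7243 and 7679 (log2 −4.76 (SE 0.067)). Gm29233 (−4.69) lies on the opposite strand of Thbs1, and their reads cannot be told apart without a known strand setting. Sned1, a matrix protein, was lower by the same order (−4.79), and Tns1, which ties integrins to actin, stood at 62.1, 61.8 and 56.7 against 1266, 1349 and 1323 (log2 −4.42 (SE 0.11)).

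Other leading genes on this side had varied roles. Gm2115 had 3 reads in the 3 MYC high libraries together against 702 in MYC low libraries, a ratio of 0.00476 with an exact 95% counting interval of 0.000980 to 0.0140. The membrane proteins Ly6a (−4.64) and Ly6c1 (−4.28) belong to a family with near-identical copies. Clstn2 (−4.48) encodes a calsyntenin, Gbp9 (−4.34) a guanylate-binding protein, Bmf (−4.29) a BCL2-family protein that promotes cell death, Trp73 (−3.95) a relative of p53, and S100a8 (−3.87) a calcium-binding protein of inflammation.

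Of 42 tested genes of TGF-β signalling, 28 were lower and 4 were higher, 15 were at least 2-fold lower, and the median was −0.70. Among ligands, Inhba (−4.57), at low counts in MYC high libraries, and Inhbb (−3.90) encode activin subunits. The integrin subunit Itgb6 (−3.42) releases latent TGF-β. Pmepa1 (ENSMUSG00000038400), a target that feeds back on the pathway, stood at 7.13, 5.06 and 4.05 against 295, 317 and 269 normalized counts. Its MYC high values came close to the level of 3 reads and lay far below every MYC low value (log2 −5.55 (SE 0.14)). Id3, a target that blocks basic helix-loop-helix factors, was lower (−1.84). Snai1, a repressor of epithelial genes, was higher (1.49), as was the shared SMAD Smad4 (0.33), and 10 members did not pass.

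Targets of the YAP and TEAD factors, which answer to cell tension, were lower in 19 of 25 and higher in 5 (median −0.67). Ccn2, a secreted matricellular protein, stood at 24.4, 19.2 and 17.2 against 292, 249 and 287 (log2 −3.71 (SE 0.14)), with Ccn1 (−2.60), Crim1 (−2.25) and Ankrd1 (−1.91) after it. Fosl1, an AP-1 subunit that YAP also drives, was higher (1.58), as was Gadd45b (0.67). Of 30 genes of the actin cytoskeleton and SRF targets 22 were lower (median −0.66): Tagln (−1.98) and Actn1 (−1.66) followed Synpo and the thymosin Tmsb4x (−4.27), Actg1 (−0.00, adjusted p = 0.923) did not pass, and the tropomyosin Tpm2 (2.50) stood against the list.

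The matrix list had 23 of 35 tested members lower, 14 at least 2-fold, and 8 higher (median −0.71). Fibronectin, Fn1, stood at 168, 149.9 and 148 against 1822, 1787 and 1912 (log2 −3.56 (SE 0.065)), and the laminin chain Lamb3 (−3.76) was lower by a like amount. Against them stood Col16a1 (1.50) and Loxl3 (1.30). Spp1, osteopontin, a secreted protein of bile duct cells and of many tumours, stood at 6875, 6953 and 6925 against 24698, 24375 and 24024 (log2 −1.82 (SE 0.026)). Of 28 genes of integrins and adhesion signalling 19 were lower and 5 higher (median −0.40), with Itgb2 (−1.66) and Itga3 (−1.21) lower, Itgb7 (1.51) and Itga7 (1.06) higher and focal adhesion kinase not passed (Ptk2 (0.06, adjusted p = 0.2)).

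Epithelial junction genes were lower in 16 of 29 and higher in 9 (median −0.36). The tight junction genes Cldn2 (−2.99) and Cldn1 (−2.97) and the keratin Krt7 (−2.64) were lower, while the desmosome genes Dsg2 (2.54) and Pkp3 (1.64) were higher. In the Wnt list 17 of 26 were lower, 10 at least 2-fold, and 4 higher (median −0.51). Lgr6 (−4.67) and Rnf43 (−3.84), a receptor and a feedback inhibitor, and the feedback target Axin2 (−2.08) were lower, while the coreceptor Lrp5 (1.48) was higher. Of 11 Notch genes 6 were lower, with the ligand Jag1 (−2.26) and the target Hes1 (−1.48) at the head, and 4 higher. Of 14 liver transcription factors 8 were lower (median −0.59), such as Nr1h4 (−1.49), Sox9 (−1.46) and Foxa1 (−1.31), and 3 higher, led by Nr5a2 (1.63).

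**Figure D4:**
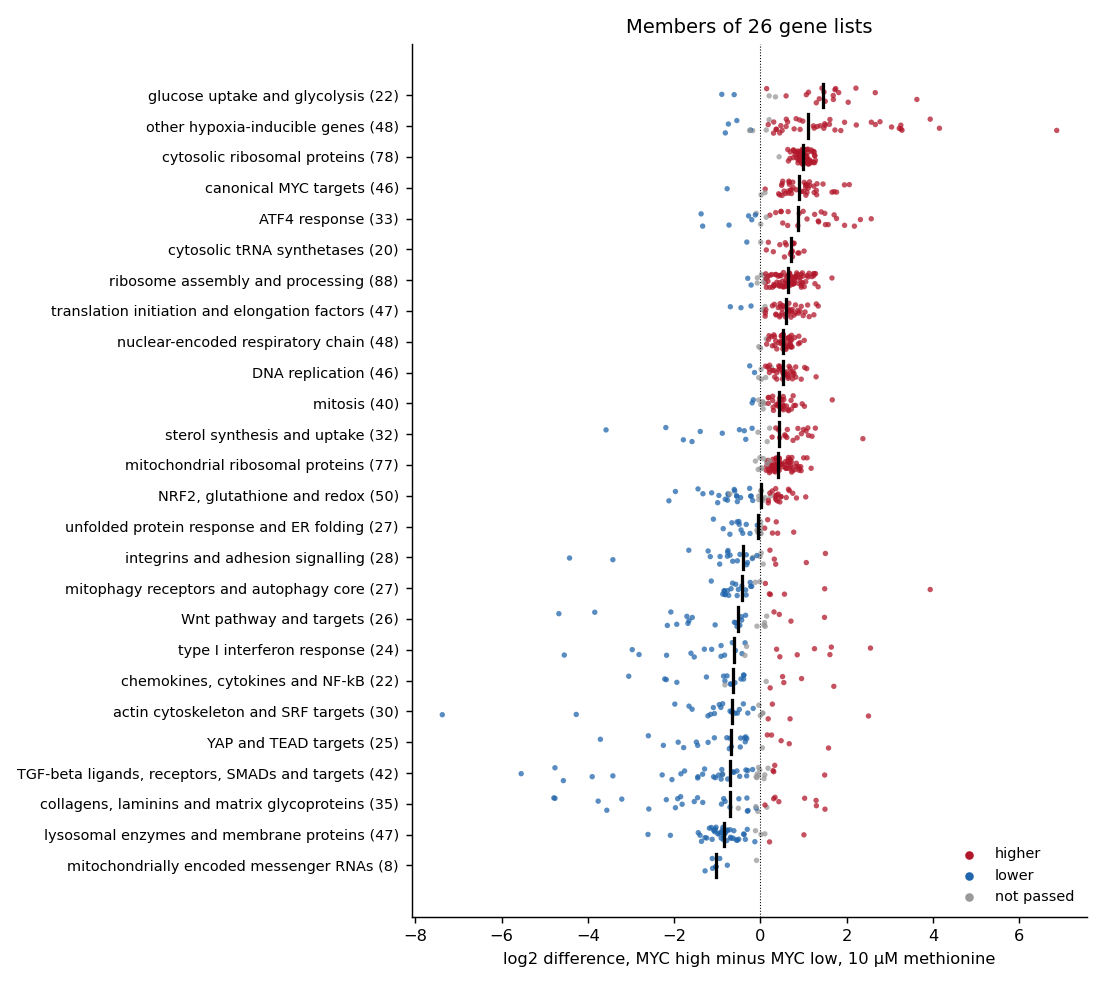
Each point is a tested member of 1 of 26 gene lists (number of members in brackets), placed by its log2 difference at 10 µM methionine, and coloured red where higher, blue where lower and grey where it did not pass, with the list median as a black bar. Medians run from −1.03 for mitochondrially encoded messenger RNAs to 1.45 for glucose uptake and glycolysis.

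Lysosomal genes were lower nearly throughout, at 42 of 47 with 2 higher and 3 not passed, and 15 were at least 2-fold lower (median −0.84). The protease Ctsl stood at 3698, 3571 and 3439.5 against 14998, 15343 and 15166 normalized counts (log2 −2.09 (SE 0.029)), followed among others by Gpnmb (−2.61), Neu1 (−1.44) and Sgsh (−1.40). The 2 higher members were Gusb (1.01) and Tfe3 (0.21), the second encoding a regulator of the list. Gusb no longer passed without MYC high replicate 3 or MYC low replicate 2 (0.90 and 0.58, adjusted p = 0.0687 and 0.182), and Tfeb (0.10, adjusted p = 0.241), a relative of Tfe3, did not pass. In the list of mitophagy receptors and core autophagy genes 19 of 27 were lower (median −0.43), with Map1lc3a (−1.14), Atg7 (−0.87) and Pink1 (−0.84) lower and the receptors Bnip3 and Bnip3l against them.

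Iron genes were mixed, with 10 of 23 higher and 8 lower, beside 35.8% and 35.7% of all genes. The transferrin receptor Tfrc, a MYC target, stood at 5226, 4820.4 and 4791 against 1979.6, 2006 and 1989 (log2 1.31 (SE 0.036)). The ferritin chains Fth1 (0.36) and Ftl1 (0.18) were higher by little, the ferroxidase Cp (−2.94), which aids iron export, was lower, and Hfe (2.67) was higher. The NRF2, glutathione and redox list was split evenly, with 20 of 50 higher, such as Sod2 (1.05), and 21 lower, such as Gsta3 (−2.12), Gpx3 (−1.97) and Srxn1 (−1.33). Its median of 0.01 changed sign with the scaling, to −0.04 when scaled by library totals, and without MYC high replicate 2, to −0.03.

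Interferon-responsive genes were lower in 15 of 24 and higher in 7 (median −0.62). Xaf1 (−2.97), Lgals3bp (−2.81) and Samd9l (−2.18) were lower, and Ifi27 was lower from a level of few reads in MYC high libraries (−4.55). The exonuclease Isg20 (2.55) was higher. MHC class I genes had 8 of 17 lower, with Erap1 (−1.10), Tapbp (−1.02), H2-K1 (−0.82) and B2m (−0.79), and 5 higher, led by H2-T24 (1.37). Of 22 chemokine, cytokine and NF-κB genes 15 were lower (median −0.64), among them Lcn2 (−3.05), Il11 (−2.22), Il33 (−2.18) and Csf1 (−1.94), and 5 higher, led by the chemokine Ccl20 (1.70).

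Growth factors and receptors had 15 of 28 lower and 10 higher (35.7% and 35.8% of all genes). The angiogenic ligands Vegfd (2.63) and Vegfa and the receptor Flt1 (2.36) were on the higher side. Igfbp2, a binding protein of insulin-like growth factors, had 0 reads in all 3 MYC high libraries and 74 in MYC low libraries, at least 22.1-fold lower when the 0 is set to 3 reads over the group.

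Stress programmes did not move together. Their counts stand beside 35.8% higher and 35.7% lower over all genes. Heat shock and chaperonin genes were higher in 18 of 23 (median 0.55), with Cct5 (1.12) and Tcp1 (1.01) first, but the inducible and near-identical genes Hspa1a (−0.86) and Hspa1b (−1.19) were lower. In the unfolded protein response 12 of 27 were lower, led by Dnajb9 (−1.09) and Dnajc3 (−0.86), 6 were higher, led by P4hb (0.77), and 9 did not pass. Of 30 p53 targets 11 were higher, with Gadd45a (1.54) and Bbc3 (1.04), and 14 lower, with Plk2 (−0.74) and Plk3 (−0.68). In the BCL2 family the death-promoting Hrk (3.03) was higher, Bmf and the survival gene Bcl2 (−1.35) were lower, and 6 of 15 did not pass. AP-1 and immediate early genes had 13 of 29 higher and 12 lower: Fos (−2.20) and Fosb (−1.68) were lower and Etv4 (1.23) and Ier3 (1.23) higher. Of 18 clock genes 8 were higher, with the repressors Ciart (2.66) and Nfil3 (1.12) first, and 9 lower, with Per2 (−1.59) and Per3 (−1.12) first.

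How far the differences depended on the medium was tested as the MYC difference at 10 µM minus that at 200 µM, an interaction term in the same fit over all 11 libraries. It was called where limma's adjusted p was under 0.05 and the size at least 1 on the log2 scale. Its adjusted p was under 0.05 in 7811 genes (60.2%), and 1673 (12.9%) were called, 1073 above 0 (8.27%) and 600 below (4.63%). At 200 µM alone 9629 genes (74.3%) passed. Of 12967 genes, 6082 passed in both media with the same sign and 1290 with opposite signs, 27 were at least 2-fold higher at 10 µM and at least 2-fold lower at 200 µM, and 10 were the reverse.

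Sugar and hypoxia genes differed more at 10 µM. The interaction was called above 0 in 13 of 22 glycolysis genes and in 24 of 48 other hypoxia genes, and below 0 in none of either list. Over all genes it was called above 0 in 8.27% and below 0 in 4.63%. Both lists were drawn up with earlier results of these data known and share members, so these counts are no independent evidence. The median differences of the lists were 1.45 and 1.10 at 10 µM beside 0.09 and 0.10 at 200 µM. Selenbp1 had the largest interaction among genes with a mean of at least 100, 7.03 (SE 0.42), since its difference was −0.16 at 200 µM. Aldoc followed at 5.04 (SE 0.37), with a difference of −1.42 at 200 µM, and Bnip3, at 4.22 (SE 0.076), differed by −0.29 there. The cytochrome P450 gene Cyp2s1 (4.71), the kinase gene Map2k6 (4.56) and Ripor3 (4.20) were the others of the 8 largest, beside the antisense transcripts Gm45507 (4.47) and Efhd1os (4.55). Without a known strand setting, reads of these antisense transcripts cannot be told apart from those of Bnip3 and Efhd1.

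Sterol genes had 12 of 32 interactions above 0 and 1 below (8.27% and 4.63% of all genes). Their median difference was 0.43 at 10 µM and −0.73 at 200 µM. Interferon genes had 11 of 24 above 0 and none below, their median being −0.62 at 10 µM and −1.26 at 200 µM. Ribosomal protein genes differed by a median of 0.99 at 10 µM and 0.59 at 200 µM, with an adjusted p under 0.05 above 0 in 75 of 78 (31.0% of all genes) but none at least 2-fold. Ribosome assembly genes differed by 0.64 and 0.96, with an adjusted p under 0.05 below 0 in 59 of 88 (29.2% of all genes) and 5 of these at least 2-fold. Nop2 was among those whose difference was smaller at 10 µM, 0.68 beside 1.36 (interaction −0.68 (SE 0.059), adjusted p = 1.95e-12). Tfrc likewise stood at 1.31 beside 1.99.

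On the other side, TGF-β genes had 9 of 42 interactions below 0 and 3 above (4.63% and 8.27% of all genes). Pmepa1 had the largest negative one among genes with a mean of at least 100, −4.46 (SE 0.21), with a difference of −1.09 at 200 µM, and Id3 (−2.62) went from 0.77 to −1.84. Clstn2 (−3.41), Sprr1a (−3.19), the stress factor Atf3 (−2.75), the secreted protein Ccdc80 (−2.69), Prl2c5 (−2.68) and Serpinb9e (−2.61) were the others of the 8 largest by the same measure, and of these Sprr1a, Prl2c5 and Serpinb9e belong to families of near-identical genes. The heat shock genes Hspa1a and Hspa1b also changed sign, from 3.12 and 2.93 at 200 µM to −0.86 and −1.19 at 10 µM. Mat2a went from 0.29 to −0.52.

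**Figure D5:**
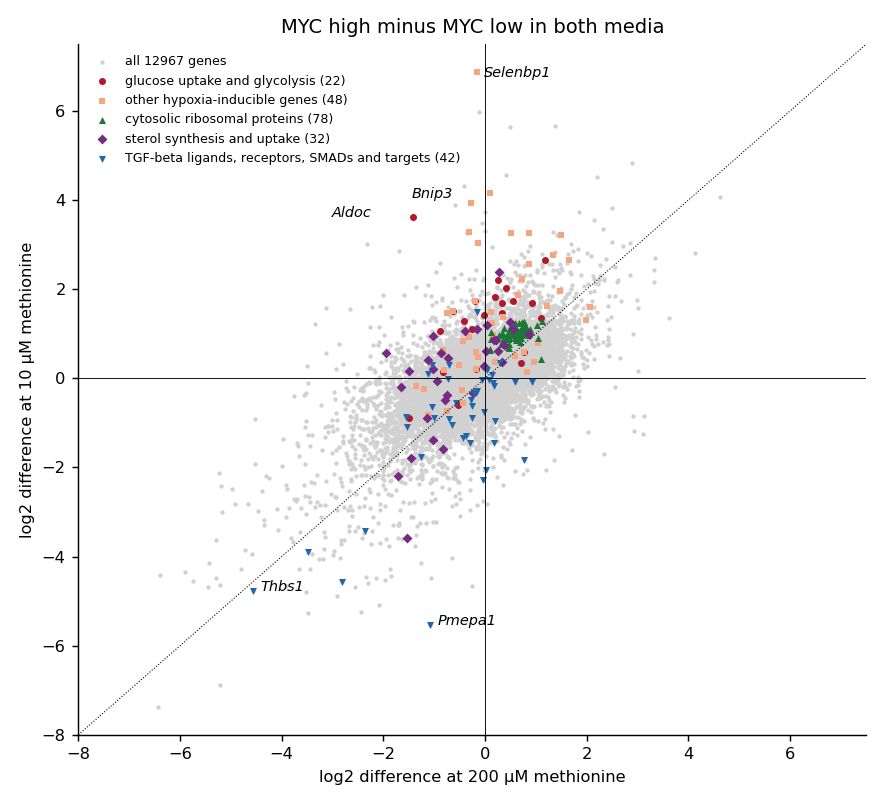
Each grey point is 1 of 12967 genes, placed by its log2 difference, MYC high minus MYC low, at 200 µM (x axis) and 10 µM methionine (y axis), with members of 5 lists in colour and a dotted line of equal differences. Many glycolysis and hypoxia genes lie above the line, with Selenbp1 at 6.87 against −0.16, and Pmepa1 lies below it at −5.55 against −1.09.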

How the data were processed

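Polyadenylated RNA of EC4 cells was sequenced with NEBNext Ultra II libraries, per the labels' protocols. The authors deposited 1 signal value per gene and library, described as normalized counts. FastQC, fastp, STAR, SAMtools, HTSeq, DESeq2 and build GRCm39 are named, without versions or order, per the submitters' processing notes, while the sources used here give no annotation release or strand setting. All values (100%) were whole multiples of 1 step per library within 0.001, so reads could be recovered for edgeR 4.0.16 and DESeq2 1.42.0 as alternatives. Columns of other samples numbered 0. Replicates differed by more than sampling noise (chi-square per gene of 1.40 to 2.67). A count of 0 allows up to 3 reads. Intervals from reads cover counting error only.

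Symbols came from GENCODE M21 (52083 of 55416 identifiers matched), and the 12967 genes tested include 12919 with a symbol. Log2 of the value plus 1, which understates folds of low genes, was fitted with limma 3.58.1 in R 4.3.3 over all 11 libraries, as 4 group means with moderation that follows mean expression (7 residual, 28.8 prior degrees of freedom). P-values were adjusted by Benjamini-Hochberg over all 12967 genes, at 0.05. SE is limma's, SD is between libraries, and single-gene p are limma's. The fit was tested on simulated data. One pooled spread serves all groups, so the pair of MYC high libraries at 200 µM is taken to vary like the rest.

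Members and gene lists were chosen with earlier results of these data known. Lists were written from general knowledge, overlap, and are described by counts and medians without a set test. Genes were named by a rule: 16 fixed names, the 15 largest differences in each direction (mean of at least 100, no overlap), the 8 largest interactions in each direction, up to 4 members of a list in its main direction, 2 against it and 2 not passed, and all members of the central lists. It made 515 genes eligible, of which 316 are named. Promoters came from the RefSeq table of GRCm38.p6, 1 window per gene.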

Additional observations from a re-analysis of the deposited data

Results flagged for a closer look

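The results picked out here are the 118 genes named above whose MYC difference differed between the 2 media by the interaction test (limma adjusted p under 0.05 and at least 2-fold). Values are the difference at 10 µM minus that at 200 µM on the log2 scale, and 83 were above 0 and 35 below. Groups of 3 libraries are too small for a test of single outlying libraries.

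Sugar metabolism gave values above 0. Uptake and the upper steps held Slc2a1 (2.13), Hk2 (1.71), Gpi1 (1.92), Pfkp (1.96), Pfkm (1.96), Pfkl (1.45) and the regulator Pfkfb1 (1.37). The lower steps held Aldoc (5.04), Aldoa (1.61), Tpi1 (1.14), Gapdh (1.35), Pgk1 (1.49), Pgam1 (1.20) and Ldha (1.26). Pyruvate genes added Pdk1 (2.10), Dlat (1.05) and Pcx (1.34), and glycogen genes added Stbd1 (2.31), Gbe1 (2.28), Pgm1 (1.89) and Gys1 (1.61).

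Members of the hypoxia list above 0 were Selenbp1 (7.03), Bnip3 (4.22) with its antisense Gm45507 (4.47), Ankrd37 (4.05) with its neighbour Lrp2bp (4.15), P4ha2 (3.60), Prelid2 (3.18) and Ero1l (2.75). That list was drawn up with earlier results of these data known, so the grouping is no independent evidence. Smaller values were those of Fam162a (2.40), Ak4 (1.73), Bnip3l (1.38), Rora (1.18) and Ciart (1.01). The sensors Egln3 (2.82) and Egln1 (1.47) and the partner Arnt2 (1.41) were above 0, as were Vegfd (2.01) and Flt1 (1.21). Of the MAX partners, Mxi1 (1.70) and Mxd1 (1.96) were above 0. Leading genes of other kinds were Cyp2s1 (4.71), Map2k6 (4.56), Efhd1os (4.55), Efhd1 (3.63), Ripor3 (4.20) and Reep6 (1.89).

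Biosynthesis genes above 0 were Psat1 (1.10), Pycr1 (1.53), Aldh18a1 (1.26), Mthfd1l (1.50), Ftcd (3.04), Nme4 (2.66), Npm1 (1.01) and Slc7a7 (1.06). Those of lipid metabolism were Stard4 (2.09), Acacb (2.55), Elovl6 (1.05) and Acaa2 (1.76). Demethylases gave Tet2 (1.33) and Alkbh5 (1.19), and division and stress gave Cdc25b (1.75) and Gadd45a (1.35).

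Immune and surface genes above 0 were H2-T24 (3.23), Cd68 (2.78), Il33 (2.13), Lgals3bp (2.11), Ccl20 (1.91), Isg20 (1.77), Gbp9 (1.57), Xaf1 (1.49), Ifi27 (1.20) and Samd9l (1.13). Epithelial, adhesion and signalling genes were Cldn2 (2.18), Lrp5 (2.12), Tns1 (1.97), Snai1 (1.64), Itga7 (1.56), Tpm2 (1.38), Etv4 (1.37) and Krt19 (1.26), and redox and iron genes were Gsta3 (3.11) and Cp (1.16).

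Members of the TGF-β, Wnt, Notch, matrix and actin lists below 0 were Pmepa1 (−4.46), Id3 (−2.62), Inhba (−1.76), Itgb6 (−1.06), Axin2 (−2.66), Hes1 (−1.97), Lamb3 (−2.39), Sned1 (−1.27), Actn1 (−1.59) and Tagln (−1.44). Over whole lists the calls went both ways, with 4 of 35 matrix genes above 0 and 4 below, and 2 of 26 Wnt genes above and 4 below. Over all genes 8.27% were called above 0 and 4.63% below. Stress and cytokine genes below 0 were Hspa1b (−4.12), Hspa1a (−3.97), Atf3 (−2.75), Dnajb9 (−1.45), Plk3 (−1.26), Plk2 (−1.20) and Il11 (−2.46). Replication and growth gave E2f2 (−1.50), Mcm4 (−1.08), Mcm2 (−1.03) and Igfbp2 (−2.58). Igfbp2 had no read in MYC high libraries at 10 µM, so the size of its value depends on the pseudocount. Regulators gave Nr1h4 (−1.35), Sox9 (−1.06), Per2 (−2.02) and Kdm8 (−1.70). Metabolic and lysosomal genes gave Aldh1l1 (−2.21), Abca1 (−2.03), Smox (−1.54) and Sgsh (−1.05). The rest were Clstn2 (−3.41), Sprr1a (−3.19), Ccdc80 (−2.69), Prl2c5 (−2.68), Serpinb9e (−2.61) and Gm2115 (−1.66). The size for Gm2115, with few reads in MYC high libraries at 10 µM, likewise depends on the pseudocount.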

How the results depend on the processing

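The counts of genes higher, lower and at least 2-fold higher or lower at 10 µM, and of genes whose difference depended on the medium, stayed within 1.5 times their values under the alternatives run, with 1 exception: without a filter on low values 1312 genes were at least 2-fold higher. These alternatives were pseudocounts of 0.5 and 5, a mean of at least 50, TMM, upper-quartile and library-total scaling, edgeR and DESeq2 on recovered reads, a fit of the 6 libraries alone, a replicate block and leaving out each library. With 1 library left out, the counts were 4438 to 4680 higher, 4357 to 4671 lower, 818 to 884 at least 2-fold higher, 994 to 1066 at least 2-fold lower, and 1639 to 1690 dependent on the medium. With library totals 4201 genes were higher and 5100 lower. With edgeR 872 and 1048 genes were at least 2-fold higher and lower, and with DESeq2 863 and 1046.

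Replicate numbers are shared between the groups, but deviations of same-numbered libraries correlated at −0.00989 to 0.0146, and the labels name no shared batch. A replicate block gave 4642 genes higher, 4610 lower and 1671 dependent on the medium.

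Of 6911 gene values under alternatives for the 316 genes named, 24 lost their call and 5 gained one. In 0 did the sign change with a call in the main or the alternative fit. Sign changes of genes that passed in neither fit, such as Myc near a difference of 0, were not counted. The lost calls were those of Slc2a2, Gusb, Adi1, Atf3 and Krt19. The median of the NRF2, glutathione and redox list turned from 0.01 to −0.00126 under upper-quartile scaling, −0.0442 with library totals and −0.0301 without MYC high replicate 2 (up to 0.0259 with another library left out), and the cause was not tested.

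Differences of genes with a few reads in a group, such as Synpo, Pmepa1 and Ifi27, are limited by depth: 3 reads equal 2.65 to 3.06 normalized counts. Large differences with limma adjusted p nearer the threshold included those of Hfe, Gpx3, Nr5a2 and H2-T24 (3.71e-05 to 0.00332). EC4 is 1 line, the 200 µM MYC high group has 2 libraries, and protein, any MYC transgene and oxygen levels were not analysed here.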
